A study of Mus musculus with 2 samples.

Results

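The neutrophil genes described here were 10 genes that mark or arm mouse neutrophils: the lectin receptor genes Clec4d and Clec4e, the immunoglobulin-like receptor gene Trem1, the formyl peptide receptor genes Fpr1 and Fpr2, the G-CSF receptor gene Csf3r, the granule protein genes Lcn2 and Ngp, the secreted factor gene Retnlg and the protease inhibitor gene Stfa2l1. They were taken from the non-control probes of the array that carry one of these 10 gene names, which gave 13 of 56605 probes and 10 of 37321 gene names. Total RNA of skin tumours from male mice was measured on single-colour Agilent arrays, 1 labelled P2ry6+/+ (wild type) and 1 labelled P2ry6-/-, a genotype without both copies of a receptor gene for uracil nucleotides. Mice of both genotypes entered UVB irradiation at 2 months of age, in 20 pairs, at 180 mJ/cm2 for 10 weeks, with weekly steps of 10 mJ/cm2 up to 300 mJ/cm2 at week 22 and irradiation until week 40. The strain, the part of P2ry6 that is deleted and the number of tumours or mice in each RNA sample are not given in the sources used here. A group was therefore 1 array, no test between the groups was possible, and each difference below describes these 2 RNA samples.

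Neutrophils are short-lived granulocytes that leave the bone marrow under the growth factor G-CSF, cross the vessel wall on selectins and integrins, and follow chemokines, complement fragments and bacterial formyl peptides into tissue. They carry ready-made granules of antimicrobial proteins and proteases, an oxidase that makes superoxide, and receptors that pair with ITAM adaptors to start inflammatory signalling. In skin they enter after UVB burns and wounding and are found in many epithelial tumours. Several genes used as their markers are also transcribed by macrophages and monocytes (Clec4d, Clec4e, Fpr1, Fpr2, Trem1) or by stressed keratinocytes (Lcn2 and the stefins).

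Of the 10 neutrophil genes, 8 were well above background on both arrays by the scanner software's own mark, Fpr1 was so on the knockout-labelled array only, and Ngp on neither. Levels are given as log2 signal relative to each array's 75th percentile, and differences as knockout-labelled minus wild-type-labelled, with 1 log2 unit being 2-fold. Among the 8, 5 were at least 2-fold higher on the knockout-labelled array (Clec4e, Clec4d, Retnlg, Fpr2 and Lcn2), 1 was at least 2-fold lower (Stfa2l1), and 2 were neither (Trem1 and Csf3r). Among all 19872 genes with a value from each array, the same thresholds took 4.82% as higher and 5.04% as lower, against 62.5% of these 8 as higher, and the members had been chosen with these values known. The 8 had a median difference of 1.24 with a range from −1.30 to 1.75, beside a median of −0.06 and an SD of 0.65 over all measured genes. In bulk tissue, fewer cells of a type and less RNA per cell cannot be told apart.

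**Figure D1:**
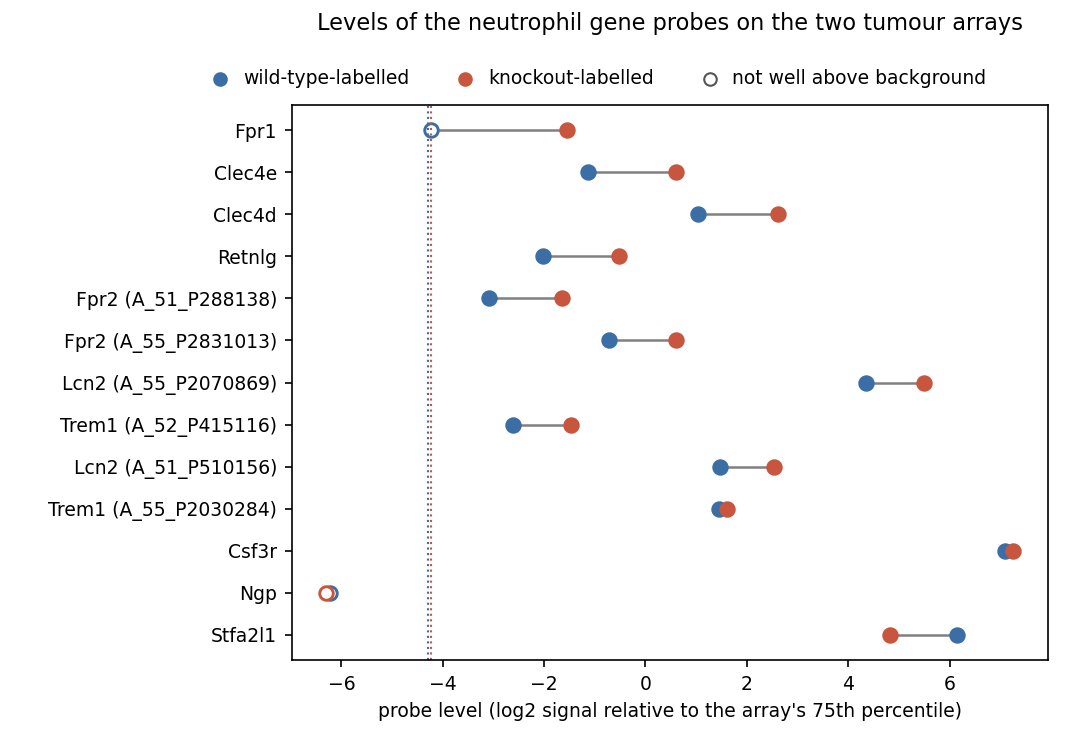
Level of each of the 13 probes of the 10 neutrophil genes on the wild-type-labelled (blue) and knockout-labelled (red) array, in log2 signal relative to the array's 75th percentile; open circles are probes not well above background, and dotted lines the lowest level well above background on each array. The probes are ordered by their difference, with Fpr1 and Clec4e at the top, Csf3r and a Trem1 probe (0.16 each) near 0 and Stfa2l1 alone running to the left (6.14 to 4.83); levels of different probes are not comparable.

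The knockout label could not be checked in the usual way. The knockout-labelled array had 2.44-fold more signal for P2ry6 itself (difference 1.29 ± 0.01 SD over 2 probes), which goes against the label, and probes outside a deleted part would check nothing. Every direction below therefore rests on the labels as deposited. The arrays were alike in quality, with 57.8% and 57.9% of spots well above background, no saturated spot, and 1 slide and 1 scan in common. Technical spread had an SD of 0.12 log2 units between spots of 1 probe (291 probes) and 0.38 between probes of 1 gene (6731 genes). Of the 291 probes, 279 lay above a level of 2, higher than most of the neutrophil genes. Between levels of −2 and 2 the SDs were 0.15 (9 probes) and 0.38 (5038 genes). Below −2 they were 0.28 (3 probes) and 0.43 (646 genes). The 8 spike-in control probes gave another scale, on which every difference is 0.46 lower than given here. That scale put 328 genes past 2-fold upwards and 3092 downwards, the members' median was 0.78, and 3 members (Clec4e, Clec4d and Retnlg) stayed at least 2-fold higher.

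Clec4e encodes Mincle, a C-type lectin receptor for mycobacterial and fungal glycolipids and for material from dying cells. Its probe, at chr6:123232878-123232937 on mm9, minus strand, gave processed signals of 157 ± 16.1 (scanner error, wild-type-labelled) and 498 ± 49.9 (knockout-labelled), the order kept throughout. The levels were −1.14 and 0.61, a difference of 1.75 (3.36-fold), and 99.1% of measured genes had a smaller signed difference. Clec4d encodes the related receptor MCL (dectin-3), which forms complexes with Mincle, and the 2 genes are neighbours on chromosome 6. The Clec4d probe, at chr6:123224788-123224847, plus strand, gave 711 ± 71.2 and 2004 ± 200, levels of 1.04 and 2.62, and a difference of 1.58 (2.99-fold). Both lectin genes were thus the higher on the knockout-labelled array, in 1 RNA sample of each genotype. Their differences kept above 1 under each of 11 other ways of processing the arrays. They lay between 1.29 and 1.77 for Clec4e and between 1.12 and 1.75 for Clec4d. Some of the 11 only change which probes are used, and these can only repeat or drop the value of a gene with 1 probe.

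The formyl peptide receptors are G protein-coupled receptors that steer neutrophils and monocytes towards bacterial and mitochondrial peptides, and Fpr2 also binds serum amyloid A and annexin A1. For Fpr1, at chr17:18013609-18013668, minus strand, the signals were 18.4 ± 5.41, which was not well above background, and 111 ± 12.2. Levels were −4.24 and −1.56, a nominal bound of 6.41-fold higher on the knockout-labelled array. It makes no allowance for the scanner error of the dim signal, so the true ratio may be smaller. This bound was taken against the higher of the dim probe's own level and the lowest level well above background on that array (−4.29). Fpr2 had a probe at chr17:18030540-18030599, plus strand, with signals of 40.9 ± 5.61 and 105 ± 11.2, a difference of 1.44. Its other probe, at chr17:18030798-18030857, gave 211 ± 21.4 and 495 ± 49.6, a difference of 1.31. The gene's difference was 1.38 ± 0.09 (SD over 2 probes), or 2.60-fold, so its probes differed from each other by far less than the arrays did. Fpr2 lost the 2-fold mark on the spike-in scale (0.92) and with normexp background correction (0.94).

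Retnlg encodes resistin-like gamma, a small secreted protein of bone marrow and neutrophils. Its probe at chr16:48874468-48874527, plus strand, gave 85.3 ± 9.55 and 228 ± 23.1, levels of −2.02 and −0.52, and a difference of 1.50 (2.83-fold). The other 3 genes of the resistin family (Retn, Retnla and Retnlb) were not well above background on either array, so Retnlg was the one member of its family with a measured difference.

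Lcn2 encodes lipocalin 2, a protein of specific granules that withholds iron from bacteria by binding their siderophores, and that inflamed epithelia also secrete. The Lcn2 probe at chr2:32241037-32241281, minus strand, gave signals of 963 ± 96.4 and 1896 ± 190, a difference of 1.06. The probe at chr2:32240199-32240258 gave 7118 ± 712 and 14749 ± 1475, a difference of 1.14. The Lcn2 difference was thus 2.14-fold (1.10 ± 0.05, SD over 2 probes), and 0.64 on the spike-in scale, where it missed the 2-fold mark. Ngp, the cathelin-like neutrophilic granule protein made by maturing precursors in the marrow, gave signals of 4.63 ± 4.65 and 4.13 ± 4.14 at chr9:110324266-110324814, plus strand. Ngp was not well above background on either array and has no fold here.

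Stfa2l1 encodes a stefin, a cytosolic inhibitor of papain-like cysteine proteases. Its probe matched chr16:36160118-36161876, plus strand, an interval longer than the 60 bases of the probe, and gave 24426 ± 2443 and 9321 ± 932. Levels were 6.14 and 4.83, a difference of −1.30 (2.47-fold lower on the knockout-labelled array), and 2.54% of measured genes had a lower difference. Stfa2l1 was the single neutrophil gene that ran against the others, and its difference lay between −1.76 and −1.06 under all 11 alternatives. Those that only change which probes are used could not move the value of its 1 probe. Its probe shared a run of 15 bases with 1 probe of another transcript, whose difference was −1.01, so the 2 may share signal.

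**Figure D2:**
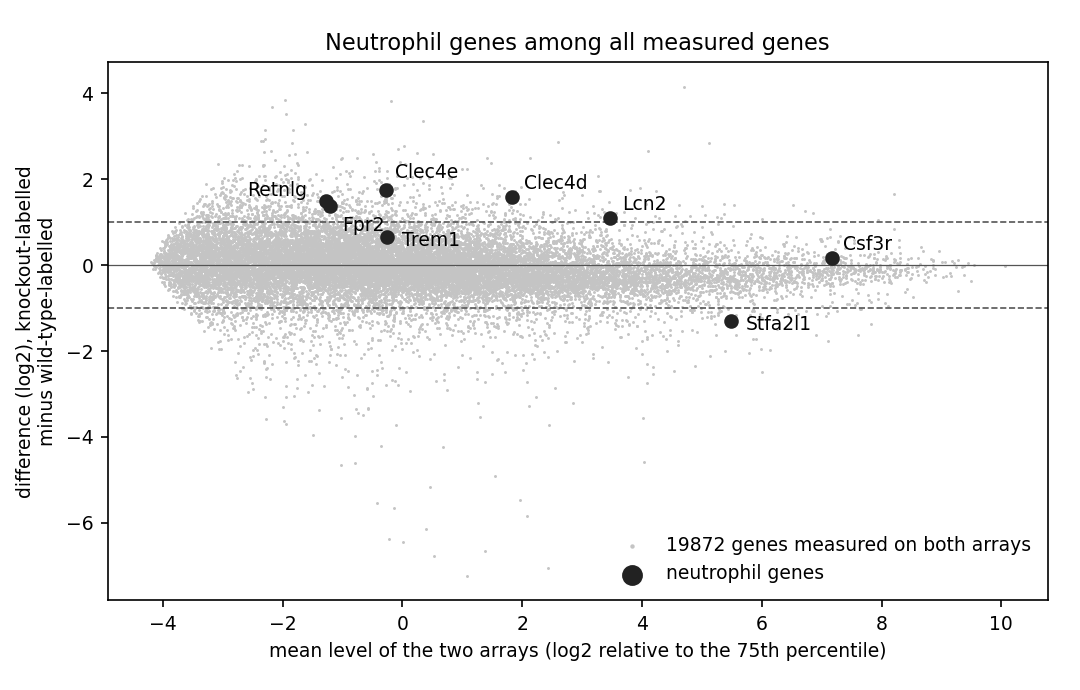
Difference (log2, knockout-labelled minus wild-type-labelled) against the mean level of both arrays for the 19872 genes measured on both (grey) and the 8 measured neutrophil genes (black); dashed lines mark 2-fold. Clec4e, Clec4d, Retnlg, Fpr2 and Lcn2 lie above the upper line and Stfa2l1 below the lower, while Trem1 (0.65) and Csf3r (0.16) lie between them; on the spike-in scale all points move down by 0.46, and Csf3r then falls below 0 (−0.30).

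Trem1 encodes a receptor that amplifies inflammatory signals of neutrophils and monocytes through the adaptor DAP12, and its 2 probes gave different answers. The probe at chr17:48385230-48385289, plus strand, gave signals of 57.0 ± 7.19 and 117 ± 12.5, a difference of 1.13 (2.19-fold). The probe at chr17:48385849-48385908 gave 947 ± 94.7 and 999 ± 99.9, a difference of 0.16. The gene's mean of 0.65 ± 0.68 (SD over 2 probes) therefore describes neither probe. Stretches of 30 bases of each probe show what sets them apart. Capitals mark the run of 15 bases that the probe shares with the largest number of other probes. That was 20 other probes for the second Trem1 probe and 8 for Csf3r. Nothing is marked where a probe shares runs with fewer than 5 other genes.
Trem1 A_52_P415116, bases 1 to 30: gtgcagatgctgttcatctcagtaggtttg
Trem1 A_55_P2030284, bases 9 to 38: tgacctgTGTTGTTGTTGTTGTtgttgttg
Csf3r A_55_P2070352, bases 31 to 60: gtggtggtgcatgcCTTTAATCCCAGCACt

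The Trem1 probe A_55_P2030284 holds a simple TGT repeat. It shared runs of 15 bases with probes of 24 other genes, of which 14 were measured, and their differences ran from −1.31 to 1.07 with a median of 0.07. The other Trem1 probe shared such a run with 1 gene. Probes that share runs with at least 5 other genes were left out in a step added after the data were seen. Trem1 then had a difference of 1.13, and 6 of the 7 members still measured were at least 2-fold higher, beside 914 of all 19238 genes. The step removed Csf3r and the Trem1 probe that differed by 0.16.

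Csf3r encodes the receptor for G-CSF, the growth factor of the granulocyte lineage. Its probe, at chr4:125721478-125721537, plus strand, gave signals of 47532 ± 4753 and 49974 ± 4997, levels of 7.10 and 7.26, and a difference of 0.16. The capitals of the Csf3r probe are letters also found in mouse B1 repeats, elements present many times in the genome and in transcripts; no repeat annotation was used. This probe shared runs of 15 bases with probes of 18 other genes, and the 14 of these that were measured had a median difference of 0.04, from −0.43 to 0.75. How much of the signal came from Csf3r transcripts was not tested, and with this probe left out Csf3r had no value. Of all 56605 probes, 2.72% shared runs with at least 5 other genes, and of the 13 probes of the neutrophil genes these were the 2.

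Promoters of the neutrophil genes were read from RefSeq (GRCm38.p6, 250 bases before to 50 after the start), which held an entry for all 10. Those of Clec4e, with the greatest measured difference, and of Fpr2 and Stfa2l1, which differed in opposite directions, are shown over the 130 bases before the start. Capitals mark matches on either strand to letters bound by granulocyte factors: GAGGAA for PU.1, TTGCNNAA for C/EBP and TTCNNNGAA for STAT. No marked match overlaps another.
Clec4e, chr6:123289872-123290001, minus strand: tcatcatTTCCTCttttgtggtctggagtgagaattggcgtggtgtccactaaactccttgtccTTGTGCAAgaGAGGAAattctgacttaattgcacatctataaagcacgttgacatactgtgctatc
Fpr2, chr17:17887694-17887823, plus strand: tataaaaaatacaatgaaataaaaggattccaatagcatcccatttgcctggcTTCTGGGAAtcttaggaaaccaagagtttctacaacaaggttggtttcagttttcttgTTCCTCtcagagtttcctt
Stfa2l1, chr16:36156681-36156810, plus strand: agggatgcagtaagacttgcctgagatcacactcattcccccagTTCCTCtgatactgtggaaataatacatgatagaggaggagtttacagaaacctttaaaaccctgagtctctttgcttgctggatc

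Over the 300-base windows, the PU.1 letters were present in 7 of the 10 promoters (Clec4d, Clec4e, Csf3r, Fpr2, Lcn2, Stfa2l1 and Trem1), against 28.3% of all 32851 promoters. The C/EBP letters were present in 4 (Clec4e, Lcn2, Ngp and Retnlg), against 10.8%, and the STAT letters in 2 (Fpr2 and Trem1), against 8.30%. The AP-1 letters TGANTCA (7.81% of all promoters) and the NF-kB letters GGANTTTCC (1.25%) were in none of the 10. A match describes letters only. The PU.1 letters were in promoters of genes that were higher, lower and neither on the knockout-labelled array.

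Genes of the pathways that these members belong to were described by 14 lists of 197 genes in all. Both arrays gave a value for 159 of them, 23 (14.5%) at least 2-fold higher on the knockout-labelled array and 11 (6.92%) lower, beside 4.82% and 5.04% of all genes, and the median difference was 0.26. The spike-in scale turned below 0 the medians of the surface marker (−0.17), granule (−0.26), chemoattractant (−0.38), chemoattractant receptor (−0.35), iron (−0.01), transcription factor (−0.22) and vessel wall (−0.34) lists.

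Other surface and cytosolic markers of neutrophils were above 0 in 19 of 25 measured and below 0 in 6, beside 45.1% of all measured genes above 0. Their median fell below 0 on the spike-in scale (−0.17). Of these 25, from a list of 26, 6 were past 2-fold upwards, 1 downwards and 18 not, with a median of 0.29 and summed linear levels of 756 (wild-type-labelled) and 534 (knockout-labelled) in multiples of the 75th percentile. The sum moved against the median because S100a8 and S100a9, the calprotectin subunits that keratinocytes also make, weigh most in it: S100a8 differed by −0.90 (levels 7.87 and 6.97) and S100a9 by −0.39 (8.93 and 8.54). Higher were Slfn4 (2.16, levels −3.12 and −0.96), a myeloid Schlafen gene, Ifitm6 (1.58), Trem3 (1.49), the Fc receptor genes Fcgr3 (1.25) and Fcgr4 (1.22), and the histidine decarboxylase gene Hdc (1.03 ± 0.61, SD over 2 probes). Lower was Wfdc21 (−1.01), a whey acidic protein gene. Ly6g, the surface antigen by which mouse neutrophils are usually counted, differed by −0.81 (levels −0.36 and −1.17), and Cxcr2, their main chemokine receptor, by 0.11 (−0.24 and −0.13). The integrin gene Itgam differed by 0.54, from 1 measured probe that shared runs with probes of 126 other genes, and Cd177 was not well above background on either array.

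Granule protein genes likewise split. Of 12 measured of 16, 2 were at least 2-fold higher (the oxidase gene Cybb, 1.71, and the lysozyme gene Lyz2, 1.10), 2 lower and 8 neither, with a median of 0.20. Which cells gave the higher values in this list and in the surface list was not tested, and Cybb is counted again in the oxidase list. The lower ones were Chil3 (−4.90, 29.9-fold), a chitinase-like gene that macrophages also express, and Serpinb1a (−1.52), an inhibitor of neutrophil elastase. Of the azurophil granule genes, Mpo, the myeloperoxidase gene, differed by 0.44 and Elane, the elastase gene, by −0.09. Camp, the cathelicidin gene of specific granules, differed by 0.29, while Ltf, Prtn3, Ctsg and Fcnb were not well above background on either array.

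The oxidase itself was measured in full. All 7 genes of the NADPH oxidase list, which makes superoxide in phagocytes, had differences above 0, from 0.60 to 1.71 with a median of 0.82 (0.36 on the spike-in scale). Of all measured genes, 45.1% were above 0. Cybb, its membrane catalytic subunit, had levels of −3.74 and −2.03 (3.28-fold higher), and Ncf4 (1.05) also passed 2-fold. Cyba, Ncf1, Hvcn1 and Rac2 lay between 0.60 and 0.82, short of 2-fold.

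**Figure D3:**
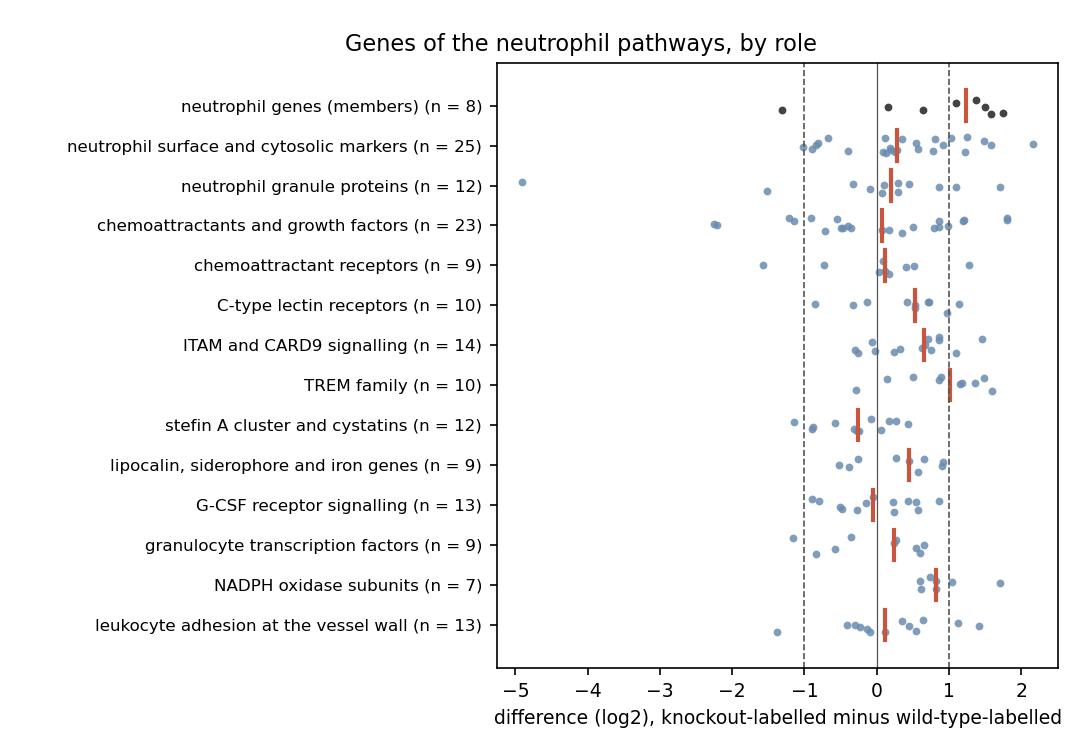
Difference (log2, knockout-labelled minus wild-type-labelled) of each measured gene in the lists of neutrophil pathways, 1 dot a gene, with the list's median as a red bar and 2-fold as dashed lines; the vertical scatter of dots within a row has no meaning. The TREM (median 1.02) and NADPH oxidase (0.82) lists lie to the right and the stefin list (−0.26, or −0.05 with loess normalization) slightly to the left. On the spike-in scale each dot and bar moves 0.46 to the left, so that the medians under 0.46 fall below 0.

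The signalling partners of Clec4d, Clec4e and Trem1 were compared next. In the ITAM and CARD9 list, 14 of 15 genes were measured, 2 were at least 2-fold higher and none lower, with a median of 0.65 (0.19 on the spike-in scale). Tyrobp, which encodes DAP12, differed by 1.09 (levels 2.05 and 3.14). Fcer1g, the Fc receptor gamma chain that carries the Clec4e signal, differed by 0.86 (levels 2.41 and 3.27), the kinase gene Fgr by 0.86, and Card9 was not well above background on either array. Among other C-type lectin receptor genes, 10 of 18 were measured, with a median of 0.53 (0.07 on the spike-in scale). Clec7a, the beta-glucan receptor dectin-1, was 2.21-fold higher (1.15), while Clec4b1 (0.97), Clec1b (−0.85) and Clec4b2 (0.72) did not reach 2-fold, nor did Clec5a (0.73).

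The TREM list, which holds Trem1's relatives and the CD300 receptors, had 5 of 10 measured genes at least 2-fold higher and none lower, with a median of 1.02 (0.56 on the spike-in scale and 0.56 under normexp background correction). These were Treml4 (1.59), Trem3 (1.49), Cd300ld (1.37), Cd300lf (1.19) and Trem2 (1.16), a lipid receptor of macrophages. Cd300lf was measured by a probe that shared runs with 26 other genes.

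The ligands that call neutrophils did not move together. Of 23 measured of 28 chemoattractant and growth factor genes, 4 lay past 2-fold in each direction and 15 did not, with a median of 0.08. Higher were the chemokine genes Ccl3 (1.81, levels 1.07 and 2.88) and Cxcl2 (1.19), the complement gene C3 (1.80) and the transglutaminase gene Tgm2 (1.21). Lower were the acute-phase gene Saa2 (−2.25, levels −0.82 and −3.08), the cytokine gene Il6 (−2.21, levels −1.43 and −3.64), the platelet chemokine gene Ppbp (−1.21) and the galectin gene Lgals3 (−1.14). Cxcl2 and Cxcl1, both ligands of Cxcr2, had differences of opposite sign, with Cxcl1 at −0.72 and Cxcl5 at −0.35. Csf3, which encodes G-CSF, differed by 0.87 (levels −1.70 and −0.83), and Anxa1, which encodes a ligand of Fpr2, by −0.55.

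Among chemoattractant receptors other than Fpr1 and Fpr2, 9 of 17 were measured, with a median of 0.11. C5ar1, the receptor for the complement fragment C5a, was 2.42-fold higher (1.28), and P2ry2, a nucleotide receptor gene, 2.97-fold lower (−1.57). The leukotriene receptor gene Ltb4r1 (−0.73) and the complement receptor gene C3ar1 (0.51) did not reach 2-fold. The formyl peptide receptor relatives Fpr3, Fpr-rs3, Fpr-rs4 and Fpr-rs6 were not well above background on either array, so the high values of this family were those of Fpr1 and Fpr2.

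The stefin list, to which Stfa2l1 belongs by family, had all 12 genes measured, with 1 at least 2-fold lower and none higher, beside 5.04% of all genes lower. Its median was −0.26, with 8 genes below 0 and 4 above. That median was −0.72 on the spike-in scale, −0.05 with loess normalization and −0.12 in the authors' table. Stfa2 differed by −1.15 (levels 7.50 and 6.35), Stfa3 by −0.89, Csta2 by −0.88 and Csta1 by −0.57, while Stfa1 differed by −0.28. Stefin genes are near copies of each other, and probes of Stfa2, Stfa3 and Csta2 each shared a run of 15 bases with 1 other gene, so their signals may be split.

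Genes upstream and downstream of Csf3r stayed under 2-fold. Of 13 measured of 15 G-CSF signalling genes, the median was −0.05, and the greatest differences were those of Pim1 (−0.90), Csf3 (0.87), Socs3 (−0.80), the feedback inhibitor of this receptor, and Stat5a (0.57 ± 0.71, SD over 2 probes). Of the granulocyte transcription factor genes, 9 of 12 were measured, with a median of 0.24 (−0.36 with the stricter filter on dim probes), and Klf5 was 2.22-fold lower (−1.15). Cebpa (−0.84), Lmo2 (0.65) and Irf8 (0.60) did not reach 2-fold. In the iron list, 9 of 11 were measured, none differed 2-fold, and the median was 0.45; the lipocalin receptor gene Slc22a17 differed by 0.92, the phagosomal transporter gene Slc11a1 by 0.91, Lrp2 by 0.65 and the ferritin gene Ftl1 by 0.57.

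Of the vessel wall adhesion genes, 13 of 14 were measured, 2 were at least 2-fold higher and 1 lower, with a median of 0.12. Esam (1.42) and Vcam1 (1.13) were higher, and Selp, the P-selectin on which neutrophils roll, was 2.61-fold lower (−1.38, levels −1.18 and −2.56). The junction gene Icam2 differed by 0.65 and did not reach 2-fold.

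Markers of the other cells that a skin tumour can hold were compared on the same scale. All 10 pan-leukocyte markers had differences above 0, from 0.23 to 0.84 with a median of 0.70, none past 2-fold, and summed linear levels of 24.9 (wild-type-labelled) and 42.3 (knockout-labelled). Ptprc, which encodes CD45, differed by 0.64 ± 0.65 (SD over 4 probes), and Arhgdib, Lcp1, Cd52 and Laptm5 by 0.84, 0.82, 0.79 and 0.77. For comparison, 45.1% of all measured genes had differences above 0. On the spike-in scale the pan-leukocyte median was 0.24.

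Macrophage markers had a median close to that of the neutrophil genes. Of 11 measured of 14, 6 were at least 2-fold higher and 1 lower, with a median of 1.23 and summed linear levels of 15.3 and 32.4 in the same order. Cx3cr1, the fractalkine receptor, was 6.88-fold higher (2.78, levels −1.37 and 1.42), followed by Fcgr1 (1.71), Mertk (1.35) and Cd14 (1.33). The lower gene was Mrc1 (−1.07), and Cd68 hardly differed (0.05), so the markers did not all rise. Cd163 passed the background mark under the wild-type label only and Msr1 under the knockout label only, so neither has a measured difference. The macrophage median was 0.83 under normexp background correction and 0.77 on the spike-in scale. Since macrophages transcribe several of the genes that were higher here, their part in the differences of Clec4d, Clec4e, Fpr1, Fpr2 and Trem1 was not tested.

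Markers of inflammatory monocytes (10 of 10 measured, 3 lower, none higher) had a median of −0.17, which became 0.09 without shared-sequence probes and −0.62 with the stricter filter on dim probes. Besides Chil3, the gene Plac8 differed by −1.20 and Ly6c1 by −1.04, while F13a1 was 1.99-fold higher, just short of 2-fold. Of 8 measured dendritic and Langerhans cell markers, 3 were higher and 1 lower, with a median of 0.48 (0.999 with the stricter filter): H2-Aa (1.27), Itgax (1.21) and Ciita (1.14) were higher and Cd207 (−1.66) lower. Mast cell markers had a median of −1.65, with Mcpt4 (−2.53), Cma1 (−2.47), Cpa3 (−2.22) and Fcer1a (−1.07) at least 2-fold lower among 6 measured. The others measured, Kit (0.69 ± 0.63, SD over 2 probes) and Tpsb2 (0.19), lay above 0. Tpsab1 was well above background on the knockout-labelled array only. The mast cell median was −0.86 under normexp background correction and −1.07 without a filter on dim probes. Of 7 measured T and NK cell markers 3 were lower, Gzmb (−2.62), Gzma (−1.50) and Cd2 (−1.29), with a median of −0.43, and Cd3d differed by −0.43. The 4 measured B and plasma cell markers had a median of −0.69, with Jchain higher (1.89), Pou2af1 lower (−1.72) and Cd79b at −0.20. That median has no settled sign: it was 1.89 with the stricter filter, −0.13 under normexp and −0.22 without a filter. Of eosinophil and basophil markers 3 of 8 were measured: Mcpt8 (−1.68), Siglecf (0.71) and Ccr3 (−0.39), the median, which was 0.11 without a filter on dim probes and had no value with the stricter one.

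Markers of suprabasal and stressed keratinocytes were mostly lower, and those of basal keratinocytes were not. The stressed keratinocyte list had 7 of 12 at least 2-fold lower, none higher, a median of −1.58 (−0.995 under normexp) and summed linear levels of 3428 and 2665. Serpinb3a (−2.50), Defb4 (−2.26), Sprr3 (−2.14) and S100a7a (−2.05) were the lowest. The keratin genes of this list, Krt6a (−0.03), Krt17 (0.13), Krt6b (−0.37) and Krt16 (−0.61 ± 0.47, SD over 2 probes), did not reach 2-fold. Suprabasal markers had 5 of 7 measured lower and none higher, with a median of −1.62 and summed linear levels of 1019 and 428, including Casp14 (−1.85), Dsg1a (−1.66) and Krt1 (−1.62). Tgm3 had a mean of −2.17, but its 2 probes differed widely (SD 2.18). The basal keratinocyte median was 0.05 (−0.41 on the spike-in scale), with Krt5 higher (1.66), Trp63 at 0.48, Col17a1 at −0.41 and Itgb4 at 0.32. Keratinocytes transcribe stefins, S100a8, S100a9 and Lcn2, and the part of keratinocyte states in the values of Stfa2l1 and Lcn2 was not tested. Lcn2 (1.10) and Stfa2l1 (−1.30) differed in opposite directions, and 1 array per group cannot relate either of them to keratinocyte states.

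Stromal markers lay near 0. The 6 fibroblast markers had a median of −0.02 (−0.48 on the spike-in scale), with Pdgfra at 0.58, Fbln1 at −0.53, Dcn at −0.50 and Col1a2 at 0.20. The 5 endothelial markers had a median of 0.12 (−0.34 on the spike-in scale), with Emcn at 0.68, Kdr at 0.57, Tek at −0.34 and Pecam1 at 0.12.

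**Figure D4:**
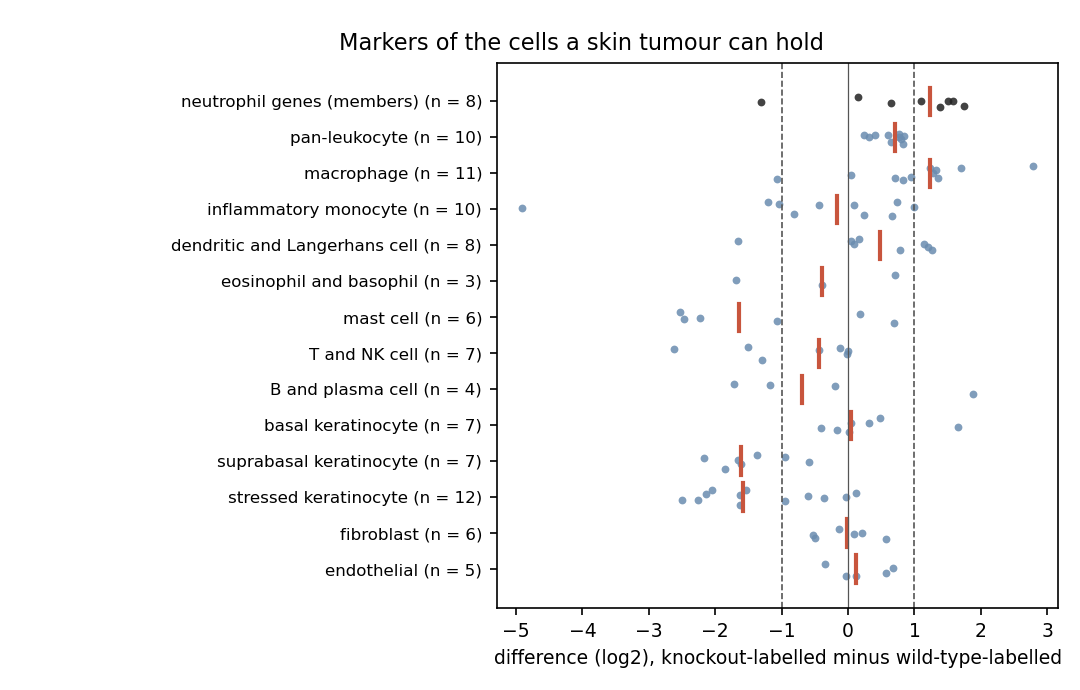
Difference (log2, knockout-labelled minus wild-type-labelled) of the neutrophil genes and of each measured marker of other cells, 1 dot a gene, with the median as a red bar and 2-fold as dashed lines; the vertical scatter within a row has no meaning. Pan-leukocyte (median 0.70) and macrophage (1.23) markers lie to the right with most neutrophil genes, mast cell (−1.65) and suprabasal keratinocyte (−1.62) markers to the left, and on the spike-in scale each dot and bar moves 0.46 to the left, which lowers the dendritic cell median to 0.02 and the pan-leukocyte median to 0.24 and takes the basal keratinocyte and endothelial medians below it.

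**Figure D5:**
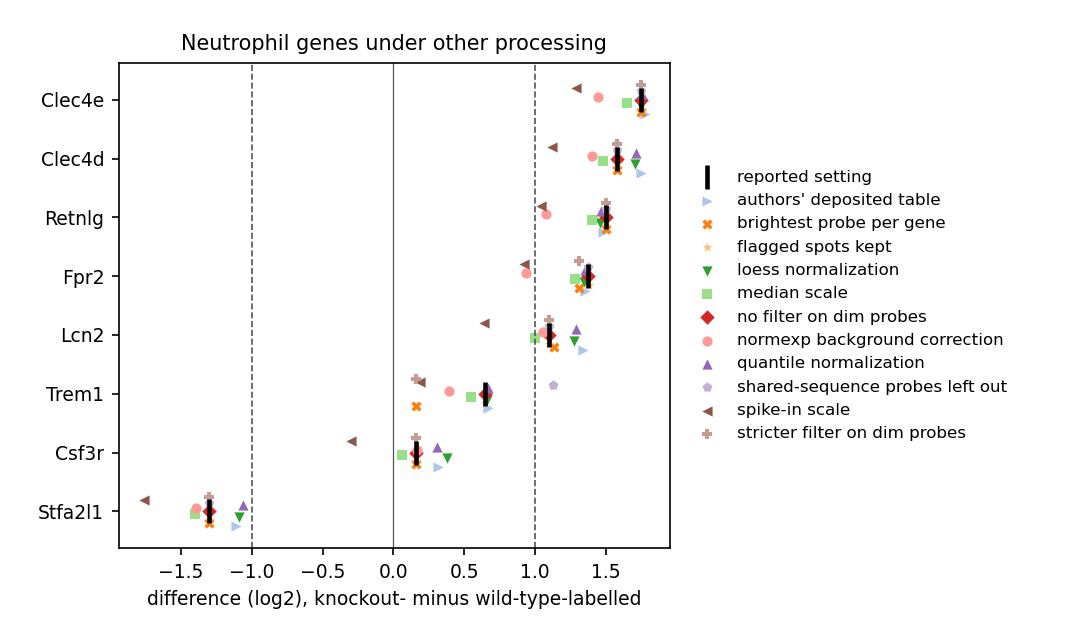
Difference (log2, knockout-labelled minus wild-type-labelled) of the 8 measured neutrophil genes as reported (black bar) and under 11 other ways of processing (coloured symbols), with 2-fold as dashed lines. Clec4e, Clec4d and Retnlg stay right of the 2-fold line and Stfa2l1 left of it throughout, Fpr2 and Lcn2 cross it in 2 and 1 of the settings, Trem1 ranges from 0.16 to 1.13, and Csf3r turns below 0 on the spike-in scale (−0.30).

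Retnlg ranged from 1.04 to 1.50 under these alternatives, Fpr2 from 0.92 to 1.38 and Lcn2 from 0.64 to 1.34. Trem1 was at 0.16 with the brightest probe per gene and with a stricter filter on dim probes, both of which rest on its repeat probe, and at 1.13 without that probe. The authors' own deposited log2 table put 5 members at least 2-fold higher and 1 lower, with a median of 1.35. Of all 19872 genes it put 991 higher and 946 lower.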

How the data were processed

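Each array file holds the scanner software's intensity per spot, which per the file headers and the submitters' processing notes the authors extracted with Agilent Feature Extraction 10.7.1.1, background-subtracted and detrended, with no scaling between arrays. Per the labels' protocols, Cy3-labelled cRNA came from 0.2 µg of total RNA. A deposited table of the authors' own log2 values followed the log2 intensities at r = 0.9999 and 0.9997, and its sorted columns differed by at most 0.00104, as after quantile normalization, a step that no source used here names.

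From the intensities, log2 values were averaged over a probe's spots without those marked as outliers (102 and 105), and the array's 75th percentile over non-control probes was subtracted. Probes counted as measured when the scanner software marked the majority of their spots well above background on each array, and a gene's value was the mean over its measured probes. Where just one array passed, the gene has no measured difference and a nominal bound, without allowance for scanner error. Names of 32994 probes came through RefSeq accessions (GRCm38.p6), 1535 of them updated; 23611 kept the array's name. Positions come from the array files (mm9), and exon annotation of that build was not used here. With 1 array per group no test was run; 2 arrays limit the precision. The members and gene lists were chosen with earlier results of these data known. Some genes that the naming rule takes are not reported here. The text names all members, the 4 genes of each list with the greatest differences, P2ry6 and a few defining markers; others, such as Fcgr4, Hdc, Wfdc21, Clec4b2, Trem2, Stfa1, the remaining oxidase genes and the remaining chemoattractants past 2-fold, were added after their values were seen. Python 3.11.15, R 4.3.3 and limma 3.58.1 (normexp with offset 50, loess and quantile alternatives) were used. The procedure was checked on simulated data, with changes larger than 2-fold put into brighter genes. That check did not cover dim genes or differences near 2-fold.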

Additional observations from a re-analysis of the deposited data

How the results depend on the processing

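Of 405 values recomputed under 11 alternatives, 350 moved by less than the technical spread or stayed within 1.5 times of a count. The other 55 moved further, and none of the called differences changed sign. Settings that only change which probes are used cannot move a gene with 1 probe, so part of the 350 was fixed in advance. The spike-in scale lowered every difference by the same amount: the neutrophil genes' median became 0.78 with 3 members at least 2-fold higher, and the medians of the surface marker (−0.17), granule (−0.26), stefin (−0.72), pan-leukocyte (0.24) and macrophage (0.77) lists moved too. Other settings moved some lists further: the stricter filter took the B and plasma cell median from −0.69 to 1.89 and the transcription factor median from 0.24 to −0.36, and normexp took the mast cell median from −1.65 to −0.86. The macrophage median was 0.83 under normexp background correction and 0.83 with no filter on dim probes. Over all genes, 957 higher and 1002 lower became 368 and 578 with normexp, 540 and 721 with a stricter filter, 2244 and 2135 of 37321 genes with no filter, 760 and 1228 on the median scale and 328 and 3092 on the spike-in scale, whose median of all genes lay 0.46 lower; with no filter the median of all genes lay 0.11 higher. Which scale is nearer the truth was not tested. Dim probes limit Fpr1 and Ngp, which have no measured difference. No paired analysis was possible because each group has 1 array.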
